A study of Gossypium bickii with 18 samples.

Results

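The transcripts described here have IDs of the form Novel01047, in place of the Gbi gene IDs used elsewhere, in a table comparing cotyledons of the wild Australian cotton Gossypium bickii in light and in darkness. They are called non-Gbi IDs below and were chosen by level, an ID being taken when it stood at 10 FPKM or more in at least 3 of the 6 libraries. FPKM counts fragments per kilobase of a gene, divided by the total counted in that library. Of 5511 non-Gbi IDs, 477 (8.66%) met the rule and are the members described here. Their levels in these libraries are what chose them, so the levels are given as a description. They were 4.30% of the 11096 IDs of any kind that met it, out of 49301 in the table. The other 10619 carry IDs that start with Gbi. A further 1606 non-Gbi IDs were at 0 in all 6 libraries.

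The series profiled germinating cotyledons in 18 libraries, in 6 groups of 3. The results below use 2 of these groups, both sampled at 24 h after imbibition, 1 under light and 1 in dark. The labels name no accession line or genetic change, and they do not say whether replicates came from separate plants or seed lots, so p-values measure only the spread between these libraries. The time-course table of the same series lists 0 non-Gbi IDs among 43790, so these transcripts have no value there at 0, 12, 36 or 48 h. In bulk RNA, fewer cells of a type and less RNA per cell cannot be told apart.

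Cotyledons are the seed leaves that hold the reserves of a cotton seed. After imbibition they mobilise these reserves, and in light they turn green and become photosynthetic. Gossypium bickii is known for seeds without pigment glands, the terpenoid-storing cavities that appear in its cotyledons once germination starts. When reads are assembled against a draft annotation, transcripts that match no annotated gene are commonly given provisional numbers. Whether the non-Gbi IDs arose that way is not given in the sources used here, and neither the files nor the labels pair any ID with a gene name, a position or a sequence. Genes are therefore given by ID with no role, and the tissue could not be checked against marker genes.

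The deposited FPKM values carried enough digits to recover the whole numbers behind them. In all 6 libraries every value was that of a whole fragment number (within 0.003 fragments) over a whole gene length, for 477 of 477 members and for 36926 of 36926 IDs above 0. For IDs above 0 in few libraries or at very low levels, some length nearly always fits. The match over all IDs therefore says little about those. The totals behind the scaling were 16377143, 17285259 and 18999970 counted fragments in dark replicates 1, 2 and 3, and 18457882, 17518318 and 17762565 in light replicates 1, 2 and 3, and the recovered fragments summed to 99.5% to 99.7% of them. Members took 2.31% to 2.88% of these fragments. A member had a median of 635.5 fragments in a library, and at least 41 wherever it reached 10 FPKM. Counting alone would give a median SD of 0.06 log2 units at these numbers, whereas the median SD between replicates was 0.28.

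Most members were expressed in both conditions. All 6 libraries reached 10 FPKM for 375 members (78.6%), 5 for 42, 4 for 32 and only 3 for 28. Of the last, 6 reached it in the 3 light libraries alone and 2 in the 3 dark libraries alone. Mean levels over the 6 libraries ran from 8.70 to 833 FPKM, with a median of 31.4 and quartiles of 16.6 and 60.5. At least 20 FPKM was the mean of 320 members, at least 50 that of 142, at least 100 that of 62 and at least 200 that of 12. Gbi IDs that met the same rule had a median of 24.1 FPKM and reached 10023, and the highest non-Gbi ID ranked 66th among all IDs. At the edge of the rule, Novel01132, Novel01844 and Novel01709 had third-highest values of 10.02, 10.02 and 10.1 FPKM and were in, while Novel02588, Novel02285 and Novel00683 had 9.98, 9.93 and 9.82 and were out.

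Members were shorter than their Gbi counterparts by the length recovered from FPKM. Their median length was 1125 bases with quartiles of 856 and 1496, from 186 to 5245, against a median of 1564 and quartiles of 983 and 2263.5 for the Gbi IDs. The main gap lay among long transcripts, since 10.7% of members and 32.8% of the Gbi IDs were over 2000 bases. Lengths divisible by 3 made up 34.2% of members and 54.8% of the Gbi IDs. The rule acts on FPKM, which is divided by length, so length is not independent of it.

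**Figure D1:**
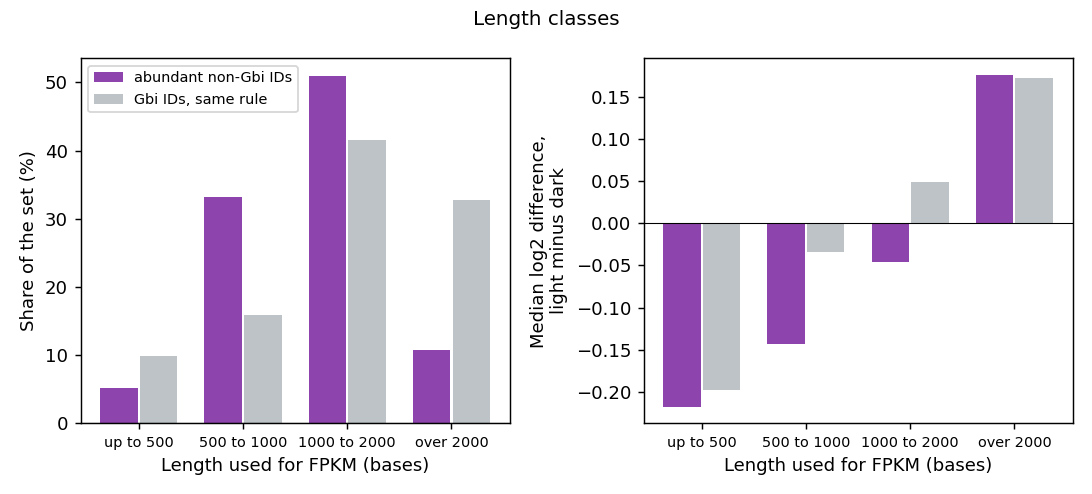
Left, the share (%) of abundant non-Gbi IDs (477, purple) and of Gbi IDs meeting the same rule (10619, grey) in each class of length in bases. Right, the median log2 difference of light minus dark on log2(FPKM + 1) in each class, which went from -0.22 to 0.18 for non-Gbi IDs and from -0.20 to 0.17 for Gbi IDs.

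The 10 highest members held 16.1% of the summed mean level of all 477, and 9 of them were no longer than the members' median. Novel01047, of 378 bases, was the highest, at 1688, 1030 and 563 FPKM in dark replicates 1, 2 and 3 and at 580, 578 and 561 in light. Its light libraries were nearly level and overlapped the lowest dark library. Novel02161, of 497 bases, stood at 951, 799 and 550 FPKM in the dark and 478, 522 and 474 in light, with no overlap. Novel04138 stood at 818, 681 and 509.7 against 433, 459 and 363 FPKM, also with no overlap. For Novel01406 the values were 739, 529 and 318 in the dark and 286, 361 and 282 in light, so that the groups overlapped. In these 4, dark replicate 1 was the highest library and dark replicate 3 the lowest dark one.

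Novel02778, of 696 bases, was nearly level in the dark at 397, 400.2 and 398 FPKM, above its light values of 357, 307 and 318. Novel02665 had 384, 363 and 288 in the dark and 409.7, 323 and 396 in light and was the only one of the 10 with a higher mean log2 level in light (0.13, SE 0.16). Novel05063, at 276, 261 and 210.1 against 313, 149.7 and 269 FPKM, had its lowest value in light replicate 2. The other 3 were Novel05007 (286 ± 51.0 FPKM in dark, 193 ± 24.6 in light), Novel03011 (269 ± 28.6 and 179 ± 12.8) and Novel00628 (252 ± 13.1 and 188 ± 10.4; SD, n = 3). In each of these all light libraries lay below all dark ones, as they did in 6 of the 10. The same held for 16.1% of all members, 17.0% of Gbi IDs meeting the rule and 11.8% of all IDs tested. Calls came from limma on log2(FPKM + 1) with Benjamini-Hochberg adjustment over 23059 IDs. A call needed an adjusted p under 0.05 with at least 1 log2 unit. Of the 10, 0 passed, against 3.15% of all IDs tested. The log2 differences of the 10 lay between -0.79 (Novel01047, adjusted p = 0.178) and 0.13. Without dark replicate 3, Novel01047 and Novel01406 passed, at -1.20 (adjusted p = 0.0173) and -1.02 (adjusted p = 0.0189). In that setting 6.08% of all members and 9.53% of all IDs tested were called. Neither ID passed with any other library left out (adjusted p from 0.193 to 0.375).

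**Figure D2:**
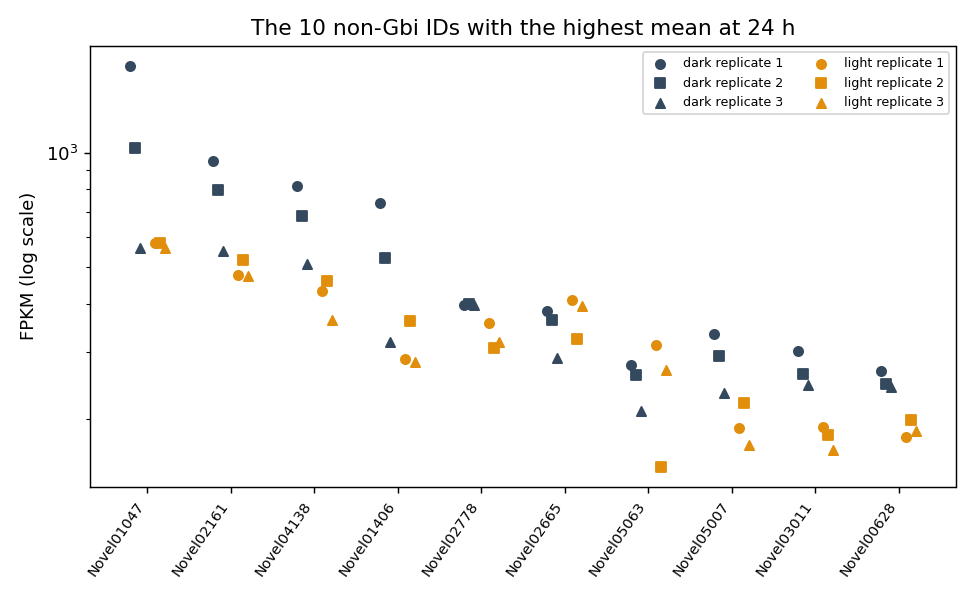
FPKM on a log axis of the 10 non-Gbi IDs with the highest mean, ordered by mean, with 1 point for each of 3 dark (dark blue) and 3 light (orange) libraries. Dark replicate 1 was the highest dark library in 9 of the 10, and all light points lay below all dark points in 6. The latter held for 16.1% of all members and 11.8% of all IDs tested.

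Together the members took a similar share of expression in both conditions. They made up 3.59%, 3.54% and 3.32% of summed FPKM in dark replicates 1, 2 and 3, and 3.04%, 3.25% and 3.57% in light replicates 1, 2 and 3. The groups overlapped, with means of 3.48% ± 0.147 in the dark and 3.29% ± 0.266 in light (SD, n = 3).

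Individually, few members were called different between light and dark. Of 477 tested, 6 were called higher in light (1.26%) and 2 lower (0.419%), against 2.55% and 0.607% of all 23059 IDs tested (3.15% in either direction). Gbi IDs meeting the same rule were called in 3.75% of cases. The 8 members that reached 10 FPKM in every library of 1 group and none of the other had to differ by the way they were chosen, and 3 of the 8 calls were among them. Among the remaining 469, 5 (1.07%) were called. An absolute log2 difference under 0.5 was seen for 340 members and one of at least 1 for 23. For 330 members (69.2%) the 95% interval of the difference from limma lay within 1 log2 unit on both sides, against 64.1% of all IDs tested and 72.1% of the Gbi IDs meeting the rule. At an unadjusted p under 0.05, 120 members (25.2%) passed, against 29.3% of all IDs tested. The count of 8 became 4 (0.839%) without dark replicate 2 and 29 (6.08%) without dark replicate 3. It became 3 (0.632%) without light replicate 2 and 2 (0.421%) without light replicate 3. Of all IDs tested, 1.08%, 9.53%, 1.31% and 0.914% were called in these 4 settings. Without a light library only 475 members were tested, Novel01618 and Novel01982 not among them. In limma-voom on the recovered fragments 10 members were called, 7 of them among the 8, against 3.66% of all IDs tested.

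**Figure D3:**
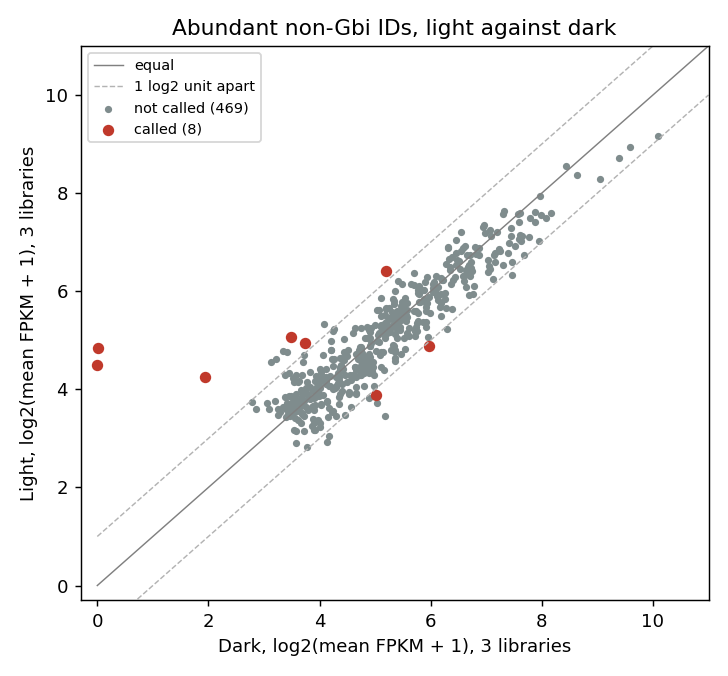
Mean level of each of the 477 abundant non-Gbi IDs in light against dark, as log2(mean FPKM + 1) over 3 libraries each. The solid line marks equal levels and the dashed lines 1 log2 unit. The 8 called IDs are red, 6 above and 2 below the solid line, and the 2 leftmost had no or next to no expression in the dark.

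A pair of the called transcripts, Novel01618 and Novel01982, was close to absent in the dark, and their values are given without a test because their light values alone met the rule. Novel01618, of 1595 bases, stood at 26.7, 27.5 and 28.9 FPKM in light. In the dark it had 1 fragment in all (0.0383 FPKM in replicate 1 and 0 in the others) against 2372 in light. The ratio of fragments per depth was 2324, with an exact 95% interval for counting error alone of 417 to 91851. Novel01982, of 1141 bases, stood at 13.9, 32.8 and 18.1 FPKM in light and at 0 fragments in every dark library, where 3 fragments in a library would correspond to at most 0.161 FPKM. Its light mean of 21.6 ± 9.92 FPKM (SD, n = 3) was therefore at least 134-fold higher. The light libraries of Novel01618 were nearly level, whereas those of Novel01982 spread by more than 2-fold.

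The other members with 10 FPKM in 1 group only were less one-sided. Novel00475 stood at 6.07, 1.15 and 1.22 FPKM in the dark and 19.7, 19.3 and 14.7 in light. Its dark replicate 1 was 4.97-fold above the next dark library. Novel01173 stood at 6.56, 6.77 and 9.91 FPKM in the dark and 13.0, 31.5 and 23.4 in light. Novel03722 and Novel02152 had light means of 12.1 ± 1.47 and 11.1 ± 0.213 FPKM over dark means of 7.29 ± 1.74 and 6.27 ± 0.798 (SD, n = 3). On the dark side, Novel02371 stood at 22.4, 15.8 and 11.3 FPKM in the dark and 6.71, 4.86 and 8.20 in light. Novel00199 had 11.3, 11.1 and 10.5 against 7.13, 6.76 and 5.57 FPKM. Apart from Novel00475, these members were not among the 8 calls. Novel00475 met the rule through its light values alone, so its call does not test for a difference. It was also not called in 5 of 15 other settings. These were with no filter (log2 difference 2.54) and without dark replicate 2 (2.24) or light replicate 1 (2.47), 2 (2.48) or 3 (2.67).

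A further 3 members rose in light from a level already present in the dark. Novel02200, of 426 bases, went from 10.3, 10.6 and 9.64 FPKM in the dark to 26.8, 38.3 and 32.9 in light. That was 72, 78 and 78 fragments against 211, 286 and 249, and a log2 difference of 1.58 (SE 0.16, adjusted p = 0.00408, limma). Novel03004, of 2125 bases, went from 12.2, 11.9 and 12.8 to 28.5, 27.9 and 32.9 FPKM, which is 1.21 in log2 units (SE 0.13, adjusted p = 0.00489). The groups of both were far apart relative to their spread, and both calls held in all 15 other settings tried, each left-out library included. Novel02965, of 2671 bases, went from 22.3, 42.1 and 42.3 to 91.5, 95.7 and 63.5 FPKM (log2 difference 1.24, SE 0.27, adjusted p = 0.0475). Dark replicate 1 and light replicate 3 were its low libraries. Its call was lost without dark replicate 1 (adjusted p = 0.0741) or 2 (0.111), without light replicate 1 (0.124), 2 (0.121) or 3 (0.0948), with median-of-ratios scaling (0.0549), with a pseudocount of 0.1 (0.0539), with no filter (0.102) and with no mean-variance trend (0.0598).

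Another 2 members fell in light. Novel01140, of 925 bases, stood at 59.8, 71.9 and 53.7 FPKM in the dark and 24.7, 32.1 and 28.3 in light, which is -1.09 in log2 units (limma, SE 0.16, adjusted p = 0.0149). Novel04828, the shortest member at 186 bases, stood at 37.4, 35.5 and 21.2 FPKM in the dark and 11.9, 15.7 and 13.9 in light (log2 difference -1.09, SE 0.23, adjusted p = 0.0425). Its values rest on few fragments, 75 to 114 in the dark and 41 to 51 in light. The groups did not overlap in either. Novel01140 lost its call without dark replicate 2 (adjusted p = 0.0704), light replicate 1 (0.0570) or light replicate 3 (0.0696). Novel04828 lost it without dark replicate 1 (0.106) or 2 (0.158) or light replicate 1 (0.115), 2 (0.0893) or 3 (0.143), with no filter (0.0888), with no mean-variance trend (0.0530) and in limma-voom on the recovered fragments (0.0827).

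**Figure D4:**
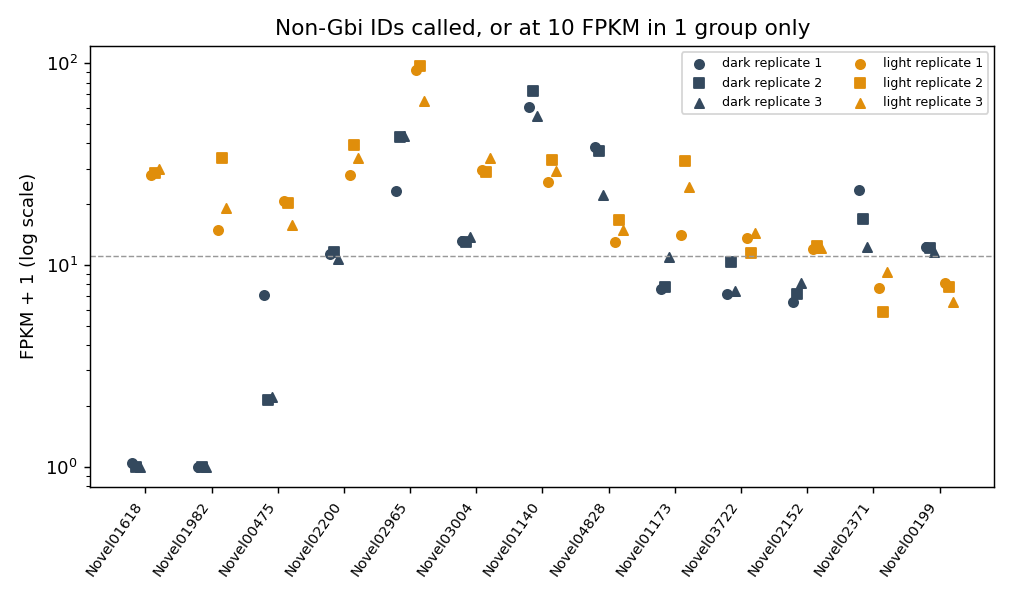
FPKM + 1 on a log axis for the 8 called non-Gbi IDs (first 8 positions) and the 5 others that reached 10 FPKM in all libraries of 1 group only, with 1 point per library, dark in blue and light in orange. The dashed line marks 10 FPKM. Light and dark points do not overlap in any of the 13 IDs. For the 8 that reached 10 FPKM in 1 group only, this was fixed by that choice. The remaining called IDs were chosen by the fit on the same values.

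Small shifts leaned toward lower levels in light. The mean log2 level was lower in light for 269 members (56.4%), against 43.8% of Gbi IDs meeting the same rule and 38.3% of all IDs tested. The median log2 difference was -0.05 for members, 0.07 for those Gbi IDs and 0.13 for all IDs tested. It was 0.05 for members after rescaling to TPM and 0.00 without light replicate 1 (0.005), so the sign of the members' median depends on scaling and on that library. The members' median lay below the median of all IDs in all 17 settings run, by 0.09 to 0.28. Dropping the fold minimum or the mean-variance trend, or adding the replicate number to the fit, cannot move either median. Those settings are therefore no separate check. All 3 light libraries were below all 3 dark ones for 77 members (16.1%) and above them for 42 (8.81%). Among all IDs tested these shares were 11.8% and 23.5%, and among the Gbi IDs 17.0% and 23.1%.

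Length moved with direction in both kinds of ID. The median log2 difference was -0.22 in the 25 members of up to 500 bases, -0.14 in the 158 over 500 and up to 1000, -0.05 in the 243 over 1000 and up to 2000 and 0.18 in the 51 above 2000. In the Gbi IDs the same classes stood at -0.20, -0.03, 0.05 and 0.17. Across members Spearman's rho of length with the log2 difference was 0.223 (n = 477), and across the Gbi IDs it was 0.206 (n = 10619). Genes are not independent and share the same 6 libraries, so these values are descriptions. The part of length in the members' lower median was not tested.

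Replicates under light were spread more widely for members than for Gbi IDs in these libraries, as a description with no test of the difference. The median SD of log2(FPKM + 1) over the 3 light libraries was 0.28 for members and 0.17 for the Gbi IDs meeting the rule, while over the dark libraries it was 0.21 for both. The 892 non-Gbi IDs tested outside the rule, which have lower levels, had 0.30 in light and 0.27 in the dark, so the wider spread in light was not limited to the members. The median SD from counting alone was 0.06 for members, 0.05 for the Gbi IDs and 0.13 for those lower non-Gbi IDs. Light replicate 1 was the lowest light library for 286 members (60.0%), against 34.4% of the Gbi IDs and 50.3% of the non-Gbi IDs outside the rule. Light replicates 2 and 3 were the highest for 219 (45.9%) and 206 (43.2%), against 36.6% and 29.03%. In the dark, replicate 3 was the lowest for 240 members (50.3%) and replicate 1 the highest for 202 (42.3%). Among the Gbi IDs the dark libraries stood the other way, with replicate 1 lowest for 48.6% and replicate 3 highest for 45.8%.

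**Figure D5:**
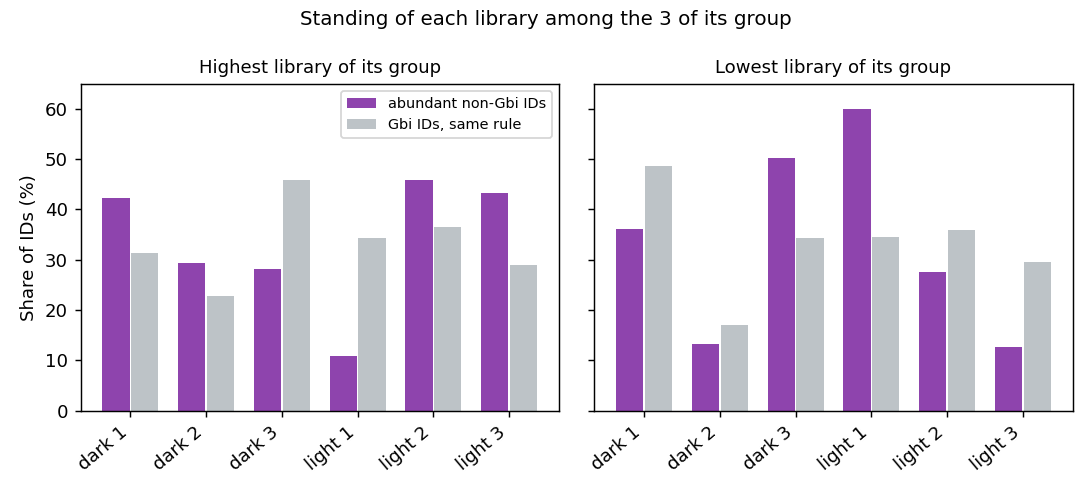
For each library, the share (%) of abundant non-Gbi IDs (purple) and of Gbi IDs meeting the same rule (grey) in which it was the highest (left) or the lowest (right) of the 3 libraries in its group. Light replicate 1 was lowest for 60.0% of non-Gbi IDs and 34.4% of Gbi IDs.

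A set of members dipped in light replicate 2. There 24 members (5.03%) stood at no more than 0.5 times both other light libraries, against 1.32% of the Gbi IDs meeting the rule, 3.51% of all IDs tested and 8.52% of the 892 non-Gbi IDs tested outside the rule. At most 5 members (1.05%) stood as far below the rest in any other library. The gap to the nearest light library ran from 2.00-fold to 5.05-fold. In 23 of the 24, all dark libraries were also above light replicate 2. Choosing IDs for a low value in that library favours this, so it is a description. The examples that follow were chosen after their values were seen. Novel00727 stood at 216, 204 and 178 FPKM in the dark and 168, 74.7 and 172 in light. Novel03806 stood at 87.4, 70.0 and 56.2 in the dark and 62.4, 19.6 and 67.9 FPKM in light. Novel05392, near the threshold, stood at 12.2, 10.5 and 10.2 in the dark and 10.3, 2.04 and 11.4 FPKM in light. The dip was thus present at high and low levels. None of the 24 was called between light and dark, against 3.15% of all IDs tested. The low library that chose them also widens the spread in light, so this follows largely from the choice.

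The members with the largest spread within groups each varied in their own way. Novel02652 stood at 96.1, 203 and 435 FPKM in the dark and 164, 187 and 34.6 in light. Novel01945 stood at 1.14, 4.41 and 21.9 in the dark and 42.5, 7.55 and 29.2 FPKM in light. Novel00627 reached 77.8 FPKM in dark replicate 1 against 14.7 and 13.5 in the other dark libraries and 9.21 to 11.3 in light. In Novel03960 (4.10, 12.1 and 19.6 in the dark, 22.2, 13.7 and 31.8 in light) the groups overlapped. They also did in Novel01572, at 24.6, 9.16 and 29.5 against 8.73, 16.8 and 5.08 FPKM. The group means of these 5 differed by up to 1.80 log2 units (Novel01945, SE 0.89), and none was called by limma (adjusted p between 0.202 and 0.388). A large spread within groups chose them and also works against a call, so the lack of calls follows largely from the choice. Without dark replicate 3, its highest dark library, Novel01945 passed, at 2.72 (adjusted p = 0.0394), in a setting that called 9.53% of all IDs tested. It did not pass with any other library left out (adjusted p from 0.161 to 0.495).

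At the other end, 5 members hardly moved. They were chosen for the smallest SD over the 6 libraries, which also keeps the difference between light and dark small. Their differences and intervals are therefore a description and do not test for an effect of light. Novel01910, of 2671 bases, stood at 35.5, 33.3 and 37.1 FPKM in the dark and 35.7, 34.6 and 32.2 in light, a coefficient of variation of 5.09% over the 6 libraries. Its log2 difference was -0.05, with a 95% interval of -0.33 to 0.23 from limma. Novel03241 kept 135 ± 7.05 FPKM in the dark and 139 ± 11.4 in light (SD, n = 3; log2 difference 0.03, interval -0.24 to 0.31). Novel01872, Novel04341 and Novel04633 varied by 5.42%, 6.12% and 6.76% around means of 31.1, 10.3 and 14.8 FPKM.

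Some members with consecutive numbers kept a steady ratio. Among the 477 there were 53 pairs whose numbers differ by 1, holding 98 members. The files do not say what the order of numbers stands for. For SDs the log2 ratio was taken on FPKM + 1, whereas the ranges of ratios below are of FPKM itself. The median SD over the 6 libraries was 0.40 in these pairs and 0.44 over all pairs of members. Most neighbours in number were therefore little steadier than other pairs. The steadiest was Novel03163 with Novel03164, at 65.4 and 20.6 FPKM on average, a ratio between 2.95 and 3.63 in every library (SD 0.11). Novel03450 over Novel03451 ranged from 0.967 to 1.28, and Novel02659 over Novel02660 from 0.947 to 1.27. Novel04620 over Novel04621 ranged from 1.70 to 2.34, and Novel01899 over Novel01900 from 11.6 to 15.5. These 5 pairs are the extreme of 53. Novel02659 and Novel02660 were nearly alike in length as well, at 2825 and 2758 bases, and in their log2 differences of 0.47 each (adjusted p = 0.152 and 0.150).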

How the data were processed

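The authors deposited FPKM values per library in 2 tables. Per the submitters' processing notes the tools were HTSeq 0.6.0, HISAT2 2.0.4 and Trimmomatic 0.36. Settings, build, annotation, strand and the making of IDs of the form Novel01047 (non-Gbi IDs) are not given in those sources. Only the light-dark table gave values. Fragment numbers, lengths and depths were recovered as the smallest whole numbers that give each deposited FPKM, so a number and its length can be too small by a shared factor.

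Tests used limma 3.58.1 in R 4.3.3 on log2(FPKM + 1), with group means, Benjamini-Hochberg adjustment and variances moderated toward a trend on the mean, two-sided, over IDs at 1 FPKM or more in at least 3 libraries. All 477 members passed that filter. Calls needed an adjusted p under 0.05 and 1 log2 unit. Differences on this scale understate changes of low genes. Steps were tested on simulated data.

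Members and lists were chosen with earlier results of these data known. Named members were the 10 with the highest mean, all called, the 5 most and 5 least variable, those at 10 FPKM in 1 group only, 3 on each side of the threshold and the 5 steadiest pairs of consecutive numbers.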

Additional observations from a re-analysis of the deposited data

How the results depend on the processing

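Limits: with 3 libraries a group, counts of calls moved with single libraries, and intervals from fragments cover counting error only. Leaving out each library gave 2 to 29 members called (0.421% to 6.08%) and 205 to 2153 of all IDs (0.914% to 9.53%). Novel01618 and Novel01982 could not be tested without a light library. With no filter 5 members (1.05%) and 312 of 36926 IDs (0.845%) were called, so the members' share was not the lower one there. With no fold minimum 15 members (3.14%) and 1103 IDs (4.78%) were called, and after rescaling to TPM 14 members (2.94%) and 903 IDs (3.92%). The cause was not tested. The calls of all IDs were 80.7% higher in light with values as deposited, 68.5% with median-of-ratios scaling and 65.3% when quantile-normalized, and those of members 6 to 2, 5 to 3 and 6 to 3. The medians of all IDs were then 0.13, 0.00 (0.00424) and -0.02 log2 units. Numbers did not pair libraries (correlations of same-numbered deviations from -0.0912 to 0.0996). With the replicate block 8 members and 701 IDs were called, Novel02965 (adjusted p = 0.0662) and Novel04828 (0.0584) not among them. limma-voom on recovered fragments, added after seeing the data, called 10 members (7 shared) and 844 IDs (3.66%). The rule at 5 FPKM or 20 FPKM would give 679 or 328 members. No named member that was called changed direction, which the choice at 1 log2 unit or more made likely. Some named members that were not called did, such as Novel02665 (0.13 as deposited, -0.02 with median-of-ratios scaling).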

Other observations

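Non-Gbi IDs outside the rule summed to 3353, 3454 and 3321 FPKM in dark replicates 1, 2 and 3 and to 3653 in light replicate 1, but to 8306 and 5183 in light replicates 2 and 3. A group of 75 non-Gbi IDs (1.36% of all non-Gbi IDs), picked after seeing the values, was under 0.5 FPKM in all dark libraries and light replicate 1 and at 10 FPKM or more in light replicate 2. Of these, 65 were at 0 in those 4 libraries. Together they summed to 0.762, 3650 and 794 FPKM in light replicates 1, 2 and 3, and 64 were above 0 in replicate 3, with a median ratio of replicate 2 over 3 of 4.31 (quartiles 4.02 and 5.21). Novel05137 stood at 160.8 and 37.4 FPKM in these libraries, Novel04183 at 149.4 and 32.2 and Novel00963 at 146 and 33.5. The same pattern was found for 81 Gbi IDs (0.185% of them). Another 3 non-Gbi IDs were high in light replicates 1 and 3 and under 0.5 FPKM elsewhere, among them Novel00429 at 52.2 and 29.6 FPKM and 0.240 in light replicate 2.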
